A study of Rattus norvegicus with 17 samples.

Results

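The genes described here carry glucose through glycolysis, rebuild it by gluconeogenesis, or store and release it as glycogen. A list of 46 gene symbols defined the set, and a gene was measured where the array's platform annotation named it. Of the 46 genes, 40 were measured, each by 1 probe, among 13278 genes with a symbol on the array. The annotation named 38 of them directly, and G6pc and Pcx were found under the current symbols of the same genes, G6pc1 and Pc. Hk1, Gckr, Pgam1, Pdha1, Gys1 and Ppp1r3c were not analysed here. All 40 measured genes read above background on at least 1 array.

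Glycolysis splits glucose into pyruvate in steps that nearly all cells share, and several steps exist as isozymes that differ between tissues. Liver and kidney also run the path backwards: pyruvate carboxylase, PEP carboxykinase, fructose bisphosphatase and glucose-6-phosphatase bypass the irreversible steps and let glucose leave the cell. Adipose tissue takes up glucose under insulin, burns part of it, and turns part into the glycerol backbone of stored fat. Liver keeps a large glycogen store, whose making and breakdown by glycogen synthase and glycogen phosphorylase set blood glucose between meals.

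RNA of adipose tissue and liver was measured on Illumina RatRef-12 arrays in male rats of 7 months. Goto-Kakizaki (GK) rats develop type 2 diabetes without obesity or treatment, and Brown-Norway (BN) rats, whose blood glucose is normal, were set against them. Both came from inbred colonies kept in Oxford on standard chow under a light and dark cycle. There were 5 BN and 4 GK adipose tissue arrays and 5 BN and 3 GK liver arrays, 1 sample to an array, and most rats gave both tissues. The strains differ at many loci besides those for diabetes, and the fat depot and whether the rats had eaten before sampling are not given in the sources used here.

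Between 7315 and 8237 probes read above background on an adipose tissue array and between 8004 and 9747 on a liver array, out of 22226. Adipocyte markers had a median of 12.8 to 13.2 (log2 scale) on the adipose tissue arrays, and all 14 measured hepatocyte markers read above background on every liver array but that labelled GK liver replicate 2. On that array the 14 hepatocyte markers had a median of 9.1, against 15.04 to 15.57 on the other liver arrays, and 19 of 20 kidney markers, led by Umod and Kap, read above background with a median of 11.7, against 4.6 or less on the other liver arrays. The strain comparison in liver is therefore counted with and without it, and it is called the kidney-like array. Folds between GK tissues and interaction values leave it out, and the counts with it are given at the end. Adipose tissue arrays also carried markers of other tissues, to different levels. On GK adipose replicate 2 the 11 skeletal muscle markers outside the set had a median of 12.4, and 9 of 11 were above background (Myh4 and Myh2 were not). On the other adipose tissue arrays 2 to 9 of the 11 were above background, 9 of them on BN replicate 4, with medians of 4.8 to 9.8. On GK adipose replicate 1, 11 of 14 hepatocyte markers were above background (Cps1, Tat and Cyp2c11 were not), against 3 to 6 on the other adipose tissue arrays. The 6 brown adipocyte markers had medians of 8.2 and 8.4 on BN adipose replicates 3 and 5. Their medians were 3.3 to 7.1 on the other BN and 4.1 to 6.6 on the GK adipose tissue arrays, and 1 to 4 of the 6 were above background in either strain.

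In adipose tissue, the question was which steps of the path differ between diabetic and control rats. Hk3, Eno2 and Dlat were higher in GK, and no member passed the threshold lower (limma, Benjamini-Hochberg adjusted p under 0.05 over all probes). These 3 of 40 members are 7.5%, against 2.65% of all 22226 probes. In the upward direction 1.03% of all probes passed and in the downward direction 1.62%. The strain difference was above 0 for 29 members and below 0 for 11, with a median of 0.18 (log2), against 0.02 over all probes. The arrays of both strains did not overlap for 12 members, against 8.21% of all probes. Whether members lower in GK also passed depends on the processing, while these 12 members kept their direction in every setting. With the deposited values 9 members passed (4.95% of all probes did), 5 higher and 4 lower in GK (Aldoc, Gys2, Ldhb and Pfkfb1). In whole tissue, a lower value from fewer cells of a type and one from less RNA per cell cannot be told apart.

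Hk3 encodes hexokinase 3, an isozyme of the first step that is best known from white blood cells. It read 5.28, 4.93, 5.34, 5.02 and 5.38 (log2 scale) on BN adipose replicates 1 to 5, none of them above background. On GK adipose replicates 1 to 4 it read 7.36, 7.68, 6.38 and 7.37, all above background. The GK mean was thus at least 3.37-fold higher, since the BN value is only a bound (difference 2.01 ± 0.26 (SE), limma adjusted p = 0.0025). The size depends on the normalization, and with neqc, limma's normal-exponential background correction followed by quantile normalization, the difference was 0.31 (limma adjusted p = 0.014). Of the 7 measured macrophage markers, 5 to 6 were above background in BN and 5 in GK (Adgre1 and Marco were not), with summed intensities of 7690 to 15942 and 7889 to 11460. Summed intensities of the 8 T and NK cell markers ran from 233 to 653 in BN and from 344 to 1387 in GK, with 3 to 6 and 4 to 7 of 8 above background. The strain difference was above 0 for all 8, with a median of 0.62 (log2) against 0.02 over all probes. At an unadjusted limma p under 0.05, 4 of them passed (50%, against 14.7% of all probes), and none passed the threshold. For the macrophage markers it was above 0 for 2 and below 0 for 5, with a median of -0.19. The part of these markers in the Hk3 difference was not tested.

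Eno2 encodes gamma enolase, the isozyme typical of neurons and neuroendocrine cells. Its values were 6.66, 6.13, 6.68, 6.56 and 7.07 in BN and 8.27, 8.21, 7.83 and 8.22 in GK adipose tissue, all above background. The lowest GK value thus lay above the highest BN value, a 2.85-fold difference of the means (1.51 ± 0.21, limma adjusted p = 0.0035). With neqc the difference was 0.51 (limma adjusted p = 0.00022). Of the 5 other neuron markers, Snap25, Syp, Nefl and Syt1 were not above background on any adipose tissue array, while Gap43 was on all of them.

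Dlat encodes the E2 acetyltransferase core of the pyruvate dehydrogenase complex, which turns pyruvate into acetyl-CoA. It read 8.33, 8.58, 8.65, 8.27 and 9.09 in BN and 9.61, 9.67, 9.54 and 9.34 in GK adipose tissue. The means differed 1.94-fold (0.95 ± 0.19, limma adjusted p = 0.033), with a gap between the strains set by BN replicate 5 and GK replicate 4. Leaving out any other adipose tissue array than BN replicate 5 ended the Dlat call, with adjusted p from 0.060 (without GK replicate 4) to 0.107 (without GK replicate 2). The Hk3 and Eno2 calls held without any 1 array.

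The arrays sat on 12 slides, and 3 slides held adipose tissue of both strains. Within those slides the GK minus BN difference of Hk3 was 2.07, 1.45 and 2.03, that of Eno2 was 1.61, 1.70 and 1.55, and that of Dlat was 1.28, 0.96 and 0.69 (log2). All 9 differences were above 0. Fitted with each slide as its own level, with 2 residual degrees of freedom left, the differences were 1.85 for Hk3, 1.62 for Eno2 and 0.98 for Dlat, and none passed the threshold (adjusted p = 0.126, 0.103 and 0.256). Without GK replicates 1 and 2 together, a setting chosen after seeing their markers, the differences were 1.68 (adjusted p = 0.056), 1.41 (0.086) and 0.85 (0.317).

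**Figure D1:**
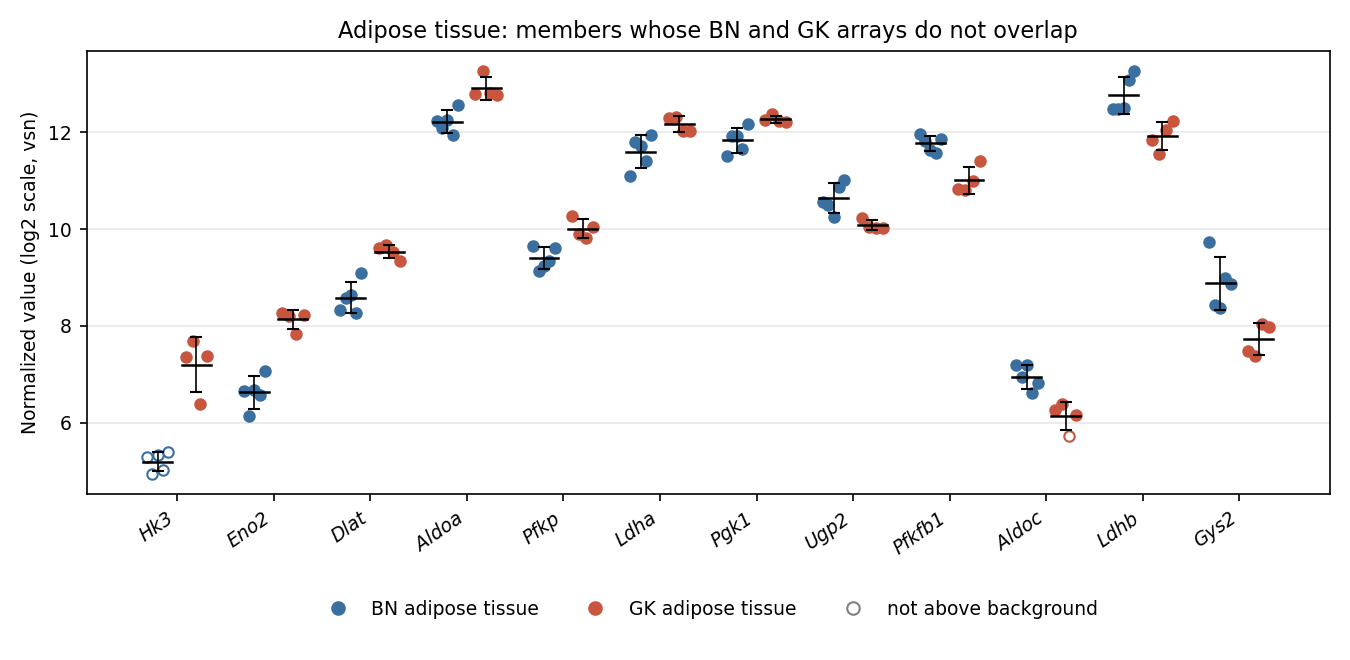
Normalized values (log2 scale) of the 12 members whose BN and GK adipose tissue arrays did not overlap, 1 point per array with 5 BN and 4 GK arrays; lines are means, bars 1 SD, and open points are not above background. Hk3, Eno2 and Dlat passed the threshold, with differences of 2.01, 1.51 and 0.95, and the other 9 did not.

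Another 9 members had no overlap between the strains and did not pass the threshold over all probes. Aldoa, Pfkp, Ldha and Pgk1 had higher GK values. Aldoa, the muscle-type aldolase, read 12.24, 12.10, 12.26, 11.94 and 12.58 in BN and 12.79, 13.27, 12.83 and 12.77 in GK (0.69 ± 0.18, limma adjusted p = 0.097). Pfkp, the platelet-type phosphofructokinase of the committed step, differed by 0.61 ± 0.18 (adjusted p = 0.126). Ldha, the lactate dehydrogenase subunit that favours lactate, differed by 0.58 ± 0.20 (adjusted p = 0.211), and Pgk1, phosphoglycerate kinase, by 0.43 ± 0.17 (adjusted p = 0.267).

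Pfkfb1, Aldoc, Gys2, Ldhb and Ugp2 had lower GK values. Gys2, the liver-type glycogen synthase, read 9.74, 8.44, 8.38, 8.98 and 8.86 in BN and 7.48, 7.38, 8.03 and 7.97 in GK, a difference of -1.16 ± 0.29 (limma adjusted p = 0.082). BN replicate 1 was the highest of its group, and on the slide it shared with GK replicate 1 the difference was -2.26, against -0.41 on both other slides. Pfkfb1, the liver-type enzyme that makes and removes fructose-2,6-bisphosphate, differed by -0.76 ± 0.18 (adjusted p = 0.060). Aldoc, the brain-type aldolase, differed by -0.82 ± 0.20 (adjusted p = 0.069) and was above background on 3 of 4 GK arrays. Ldhb, the heart-type lactate dehydrogenase subunit, read 12.49, 12.48, 12.50, 13.10 and 13.27 in BN and 11.84, 11.56, 12.06 and 12.24 in GK (-0.84 ± 0.23, adjusted p = 0.114). Ugp2, which makes the UDP-glucose used for glycogen, differed by -0.56 ± 0.19 (adjusted p = 0.192). The aldolases and the lactate dehydrogenases each had 1 isozyme on either side of 0.

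No gene of gluconeogenesis passed the threshold in adipose tissue. G6pc, the catalytic subunit of glucose-6-phosphatase, differed by 0.44 (0.0017 to 0.88, adjusted p = 0.339) and Fbp1 was above background on GK replicates 1 and 2 alone, at 6.04 and 6.39. Pck1, the cytosolic PEP carboxykinase that adipocytes use to make glycerol phosphate, differed by 0.03 with a 95% interval of -0.47 to 0.52. Pcx, pyruvate carboxylase, differed by 0.15 (-0.29 to 0.59), and Pck2, the mitochondrial PEP carboxykinase, by 0.24 (-0.11 to 0.58). Gbe1, the glycogen branching enzyme, differed by 0.01 (-0.41 to 0.44) and Pygl, the liver-type glycogen phosphorylase, by 0.04 (-0.51 to 0.58). Gapdh, often used as a reference gene, differed by 0.21 (-0.23 to 0.65). Pdk1, Pdk2 and Pdk4, kinases that shut off pyruvate dehydrogenase, differed by 0.22 (-0.22 to 0.66), 0.03 (-0.46 to 0.51) and -0.06 (-0.67 to 0.55), and Hk2 by -0.38 (-1.08 to 0.32). The interval of G6pc lay just above 0 and the other intervals included 0, which does not show the strains to be alike.

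The promoters of the 3 members called in adipose tissue are shown for comparison with those of other glycolytic genes, many of which are known targets of the hypoxia-inducible factors. Each run holds 250 bases before and 50 after the start annotated by RefSeq on GRCr8, 5′ to 3′ on the gene's own strand. Capitals mark ACGTG, a core sequence of the hypoxia response element, or CACGT on the other strand. Other forms of the core were not searched. The windows are chr17:9604781-9605080 on the plus strand for Hk3, chr4:159267171-159267470 on the minus strand for Eno2 and chr8:59900769-59901068 on the minus strand for Dlat.
Hk3: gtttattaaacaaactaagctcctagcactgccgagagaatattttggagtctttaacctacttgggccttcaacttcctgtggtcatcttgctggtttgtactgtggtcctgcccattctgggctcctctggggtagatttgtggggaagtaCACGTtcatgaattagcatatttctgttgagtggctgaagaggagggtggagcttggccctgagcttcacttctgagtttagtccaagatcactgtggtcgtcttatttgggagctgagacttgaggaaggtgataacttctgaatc
Eno2: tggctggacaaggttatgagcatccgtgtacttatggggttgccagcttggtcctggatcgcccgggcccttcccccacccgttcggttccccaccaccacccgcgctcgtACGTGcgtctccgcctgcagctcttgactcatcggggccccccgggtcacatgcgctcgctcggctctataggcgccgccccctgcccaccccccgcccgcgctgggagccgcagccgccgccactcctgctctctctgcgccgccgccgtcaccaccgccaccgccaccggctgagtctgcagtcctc
Dlat: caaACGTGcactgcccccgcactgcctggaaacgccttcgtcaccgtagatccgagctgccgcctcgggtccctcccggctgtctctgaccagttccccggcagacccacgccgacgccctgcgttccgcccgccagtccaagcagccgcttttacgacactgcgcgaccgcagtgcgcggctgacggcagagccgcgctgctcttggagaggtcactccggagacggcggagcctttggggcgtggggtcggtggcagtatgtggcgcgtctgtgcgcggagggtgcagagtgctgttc

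Each of the 3 windows held ACGTG once, counting both strands, beginning 97 bases before the start in Hk3, 139 in Eno2 and 247 in Dlat. Among the 36 measured members with a window of this kind, 18 held it in at least 1 window, and 18 of their 39 windows (46.2%) did, against 19.3% of all 33469 windows of that length. Base composition was not matched between them, and a match of letters is a description and not a binding site.

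Isozymes typical of skeletal muscle had 1 adipose tissue array far from the others. Pygm, the muscle glycogen phosphorylase, read 8.55, 6.31, 7.69, 8.76 and 7.54 in BN and 7.32, 11.67, 8.25 and 7.07 in GK. Pgam2, the muscle phosphoglycerate mutase, read 9.32 on GK replicate 2 and 6.49 or less on the other 8 arrays, and Pfkm, the muscle phosphofructokinase, read 10.67 there and 7.97 to 8.61 elsewhere. Pkm, the pyruvate kinase of muscle and of most other tissues, was above background on GK replicate 2 alone (8.48).

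The median of the skeletal muscle markers followed the same array: it was 12.4 on GK replicate 2, 4.8 to 9.8 in BN and 5.2 to 8.65 on the other GK arrays. Summed over the 11 markers, the intensity above the negative controls ran from 276 to 10511 in BN and reached 82684 on GK replicate 2, against 476 to 4561 on the other GK arrays. The part of muscle RNA in these members was not tested. Altogether 13 members lay above and 4 below all other adipose tissue arrays on GK replicate 2, and 5 of the 13 by more than 1 log2 unit. The share of all probes that did so was not computed. None of Pygm, Pgam2, Pfkm, Pkm and Eno3 passed the strain threshold.

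**Figure D2:**
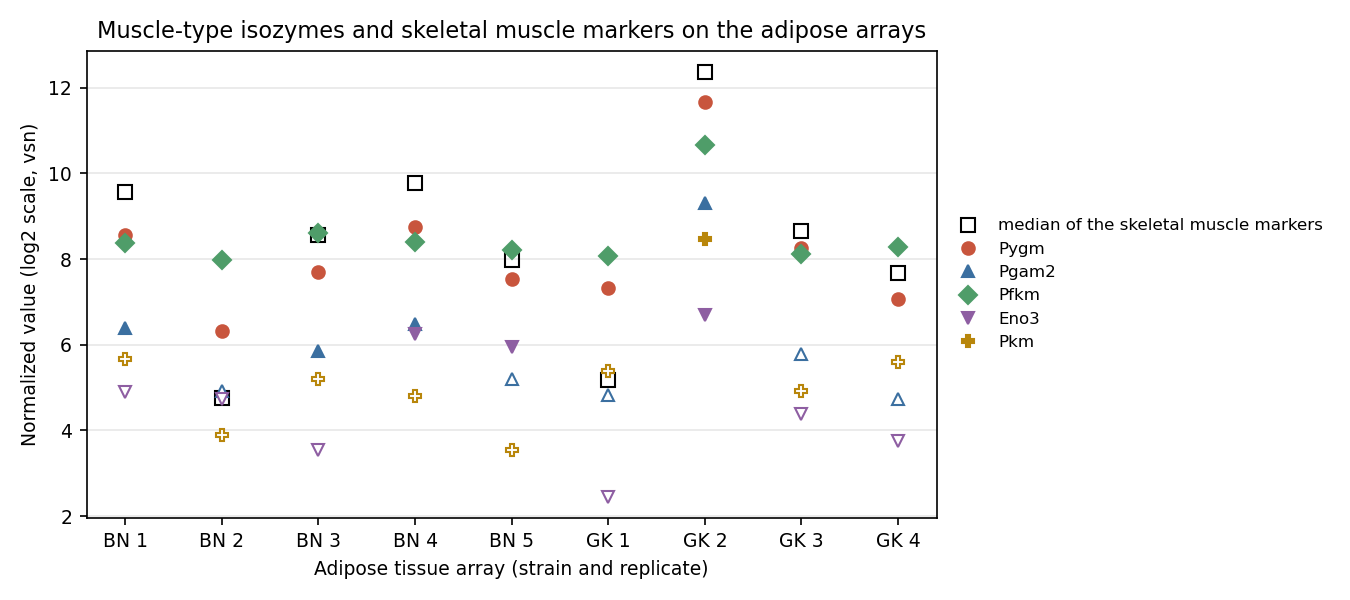
Normalized values (log2 scale) of 5 muscle-type isozymes on each of the 9 adipose tissue arrays, with the median of the 11 skeletal muscle markers as open squares; open symbols of the isozymes are not above background. Pygm reaches 11.67 and the markers 12.4 on GK replicate 2.

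In liver, the question was whether diabetic rats differ in the path that makes glucose. No member passed the threshold with all arrays (0.679% of all probes did) or without the kidney-like array (1.21% did). At an unadjusted p under 0.05, 6 of 40 members passed with all arrays and 6 without that array, or 15%, against 12.0% and 13.0% of all probes. The strains did not overlap for 7 members with all arrays, against 9.06% of all probes, and for 10 without the kidney-like array, against 17.2%. The median difference of the members was 0.07 with all arrays and -0.03 without that array, against -0.0029 and -0.04 over all probes. Without that array the 10 were Hk3, Gbe1, Pklr, Pfkm, Pfkp, Pygb and Khk with higher GK values, Fbp1 and Eno3 with lower ones, and Hk2, which was above background on no liver array.

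Hk3 had the smallest adjusted p without the kidney-like array. It read 6.88, 5.95, 6.16, 5.87 and 5.64 on BN liver replicates 1 to 5, where the last was not above background, and 7.59 and 8.03 on GK liver replicates 1 and 3. The difference was 1.71 ± 0.36 (limma adjusted p = 0.081). With the kidney-like array, at 6.08, the strains overlapped and the difference was 1.13 ± 0.47 (adjusted p = 0.397). Without the kidney-like array it passed the threshold in 6 of 14 alternatives, among them the one that also left out BN liver replicate 1 (1.91, adjusted p = 0.033). In the same comparison 5 of the 7 macrophage markers were above 0 and 2 below, with a median of 0.61 against -0.04 over all probes. At an unadjusted limma p under 0.05, 3 of them passed (42.9%, against 13.0% of all probes). Of the 8 T and NK cell markers 6 were above 0, with a median of 0.30. No marker of either list passed the threshold, and their part in the Hk3 difference in liver was not tested.

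Gbe1, the branching enzyme, read 9.65, 10.51, 10.24, 10.07 and 10.53 in BN liver and 11.32 and 11.27 on GK liver replicates 1 and 3 (1.10 ± 0.30, limma adjusted p = 0.161). On the kidney-like array it read 9.61, below all others, and with all arrays the difference was 0.54 ± 0.43 (limma adjusted p = 0.630). Pklr, the liver-type pyruvate kinase, read 8.57, 9.17, 8.46, 8.88 and 8.73 in BN and 9.47, 9.30 and 9.88 in GK, so that all 3 GK arrays lay above BN. Its difference was 0.78 ± 0.27 with all arrays (adjusted p = 0.316) and 0.91 ± 0.28 without the kidney-like array (adjusted p = 0.219).

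Pfkm was not above background on any BN liver array, with values of 3.71 to 5.02, and read 5.65 and 5.71 on GK replicates 1 and 3. The GK mean lay at least 1.54-fold above the BN bound, and the difference did not pass (limma adjusted p = 0.206). Over the alternatives this difference ran from 0.07 to 1.77 (log2). With the kidney-like array, at 8.51, Pfkm had the smallest adjusted p of the members (mean at least 2.96-fold above the bound, limma adjusted p = 0.251). Its difference then ran from 0.25 to 2.71 over the alternatives. Fbp1, fructose bisphosphatase 1, read 14.96, 14.89, 14.92, 14.87 and 14.75 in BN and 14.14, 14.14 and 14.46 in GK, a difference of -0.63 ± 0.22 with all arrays (adjusted p = 0.325) and -0.58 ± 0.22 without the kidney-like array (adjusted p = 0.323). The strains did not overlap.

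The other genes of glucose output had no separation of the strains. G6pc read 14.40, 13.28, 13.56, 13.36 and 13.57 in BN and 14.47, 13.38 and 13.25 in GK liver. BN replicate 1 and GK replicate 1 lay above the other 6 arrays. Pck1 read 15.34, 15.20, 15.41, 15.27 and 15.56 in BN and 15.22, 14.59 and 15.36 in GK, where the lowest value is the kidney-like array. Gys2 read 12.22 on BN liver replicate 1 and 10.83 to 11.03 on the other 6 arrays besides the kidney-like one.

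GK liver replicates 1 and 3 differed between themselves for some members. Pfkfb1 read 9.35 on replicate 1 and 12.07 on replicate 3, either side of the BN range of 10.79 to 11.41. Gapdh read 12.59 and 13.82, Eno1 8.43 and 10.30, and Ppp1r3b, a glycogen-targeting subunit of protein phosphatase 1, 10.74 and 12.04. For Pfkfb1 the gap between these replicates was wider than the whole BN range.

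**Figure D3:**
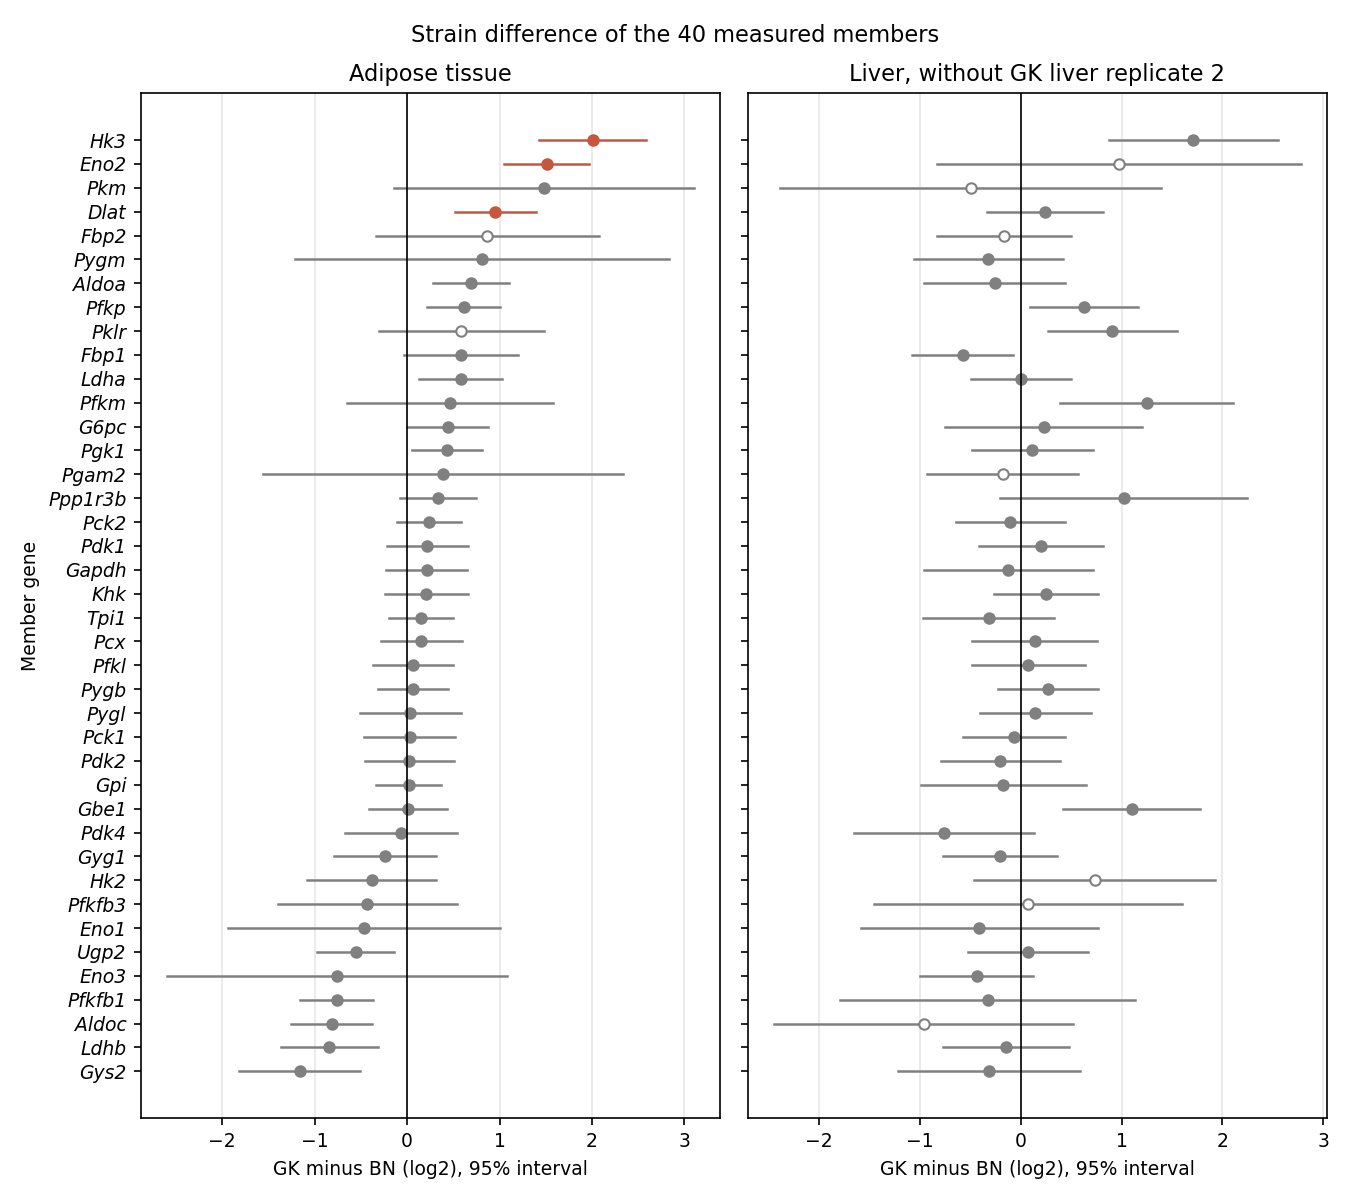
Difference of GK from BN (log2, point) with its 95% interval (line) for the 40 measured members, in adipose tissue (left, 4 GK and 5 BN arrays) and in liver without the kidney-like array (right, 2 GK and 5 BN arrays); red marks members past the threshold and open points are not above background on any array of the comparison. Hk3 is at 2.01 in adipose tissue and 1.71 in liver.

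The kidney-like array gave a different profile of the members. Against the range of the other 7 liver arrays, 19 members lay above, 10 below and 11 inside. By more than 1 log2 unit outside that range, 7 lay above and 5 below. The share of all probes outside the range was not computed. Above background on no liver array were 5 members, among them Hk2, which is counted above the range. Gys2 and Pfkfb1 were not above background there, at 4.39 and 4.57, against 10.83 to 12.22 and 9.35 to 12.07 on the other liver arrays. Ppp1r3b read 6.50 against 9.47 or more, Ldha 10.92 against 14.05 or more, and Pdk1 7.47 against 9.83 or more.

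On the other side, Ldhb read 13.64 against 6.67 to 7.36, and Aldoa 12.07 against 8.98 to 10.03. Pfkm read 8.51 against 5.71 or less, Pfkp 9.56 against 7.52 or less, and Pygb, the brain-type glycogen phosphorylase, 10.21 against 7.18 or less. Of the genes of glucose output, G6pc at 13.38 lay inside the range of the other liver arrays and Fbp1 at 14.14 at its lower edge, while the adipose tissue arrays read 5.77 to 6.85 for G6pc and 4.91 to 6.39 for Fbp1. Pck1 at 14.59 lay below the other liver arrays, which read 15.20 or more, and inside the adipose tissue range of 13.72 to 14.76.

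**Figure D4:**
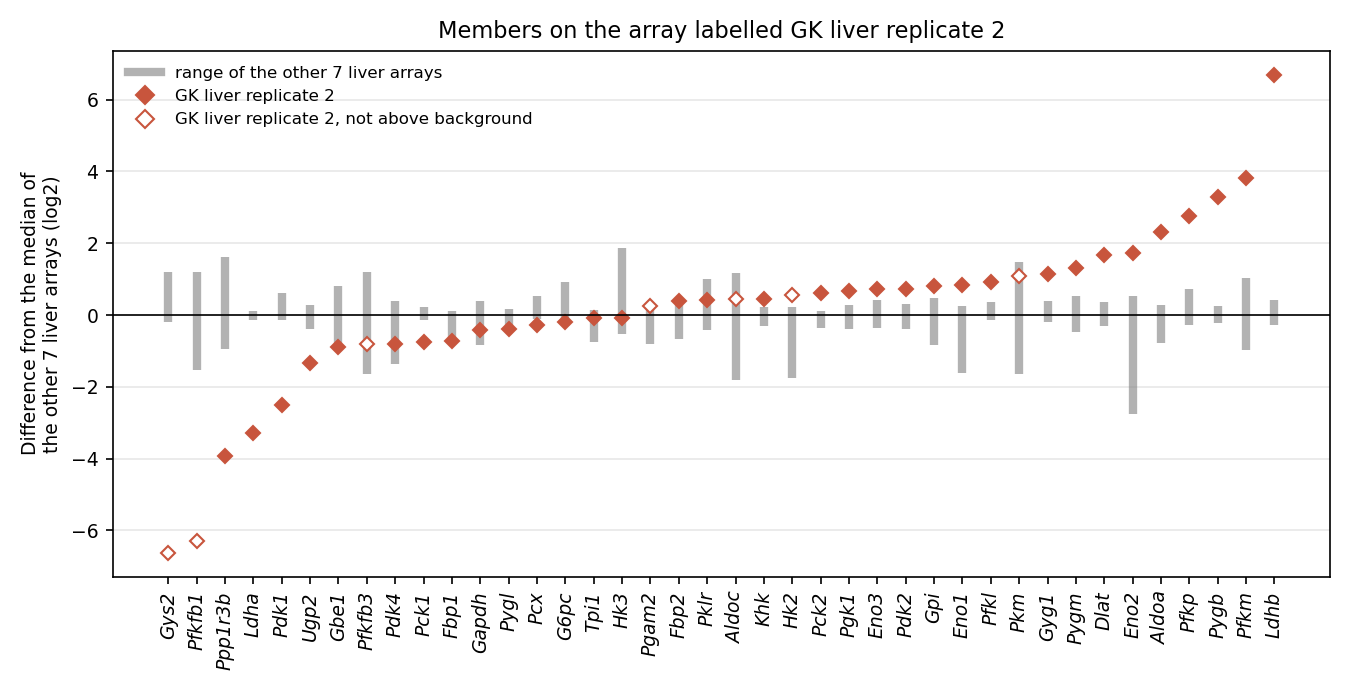
Members on the kidney-like array (diamonds, open where not above background), as the log2 difference from the median of the other 7 liver arrays, whose range is the grey bar. Gys2 and Pfkfb1 lie lowest and Ldhb highest, and G6pc lies inside the grey range.

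The members differed far more between tissues than between strains. In BN, 16 members were higher and 18 lower in liver than in adipose tissue, 34 of 40 or 85%, against 41.3% of all probes (21.9% higher and 19.4% lower). In GK without the kidney-like array, 14 were higher and 15 lower, 29 of 40 or 72.5%, against 31.9% of all probes (16.6% higher and 15.3% lower). With the rat as a block, 34 members passed in BN and 19 in GK, where that fit has 1 residual degree of freedom and 14.7% of all probes passed. Each tissue was run on slides of its own, so tissue and slide cannot be told apart.

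Gluconeogenesis genes led the liver side. Fbp1 was not above background on any BN adipose tissue array (4.94 to 5.30) and read 14.75 to 14.96 in BN liver, at least 731-fold higher (limma adjusted p = 3.9e-12). G6pc was 179-fold higher in BN liver (7.48 ± 0.24) and 154-fold higher in GK liver (7.27 ± 0.38). Khk, ketohexokinase, which starts fructose breakdown, was 31.8-fold higher in BN liver (4.99 ± 0.18) and 32.8-fold in GK liver. Pck1 was 2.05-fold higher in BN liver, where its raw intensities of 42351.8 to 52236.1 were among the brightest, and how far the scanner's range limits this fold was not tested. Pck2 was 2.16-fold lower there. Pcx did not pass in either strain (0.40 with an interval of -0.01 to 0.81 in BN). Fbp2, the muscle fructose bisphosphatase, passed in BN but was not above background on any BN array, and is given no fold.

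Isozymes of a step differed in level between the tissues, and Pfkl, Pfkp, Ldha, Ldhb, Aldoa, Pygl and Pygb were above background on every BN array of both. Among the phosphofructokinases, Pfkl, the liver type, was 2.41-fold higher in BN liver, while Pfkp was 6.44-fold lower and Pfkm at least 9.57-fold lower. Pklr was at least 10.7-fold higher in BN liver and at least 20.7-fold in GK liver. Ldha was 5.99-fold higher and Ldhb 53.1-fold lower in BN liver, and 4.03-fold higher and 32.7-fold lower in GK liver. The lactate dehydrogenase subunits thus lay on opposite sides of 0 in both strains.

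Aldoa was 5.51-fold lower in BN liver and Aldoc at least 3.69-fold lower. Hk2, the insulin-responsive hexokinase of muscle and fat, was at least 3.06-fold lower in BN liver, where it was above background on no array. Eno2 was at least 2.94-fold lower in BN liver and at least 9.16-fold lower in GK liver. The Eno1 probe read above background on every liver array and on 1 of 9 adipose tissue arrays, though Eno1 encodes the enolase of most tissues, and the Pkm probe was above background on 1 of 17 arrays; which transcripts these probes bind was not tested.

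The glycogen genes also split. Pygl was higher in BN liver (2.20 ± 0.22, log2), Pygb 6.58-fold lower and Pygm 5.37-fold lower, with 1 of 5 BN liver arrays above background. Gys2 was 5.11-fold higher in BN liver and 9.18-fold in GK liver, Ugp2 2.56-fold and 3.95-fold, and Gbe1 2.32-fold and 4.91-fold. Gyg1, glycogenin, the primer of glycogen, was 1.80-fold lower in BN liver. Pfkfb3, which drives glycolysis in many proliferating cells, was at least 3.42-fold lower in BN liver.

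At the entry to the mitochondria, Pdk4, the pyruvate dehydrogenase kinase that fasting raises in many tissues, was 2.52-fold lower in BN liver and 4.08-fold in GK liver. Dlat was 1.99-fold and 3.27-fold lower in liver. Pdk1, Pdk2 and Pgk1 did not pass in either strain. Gapdh was 5.45-fold higher in BN liver and 4.32-fold in GK liver, and Tpi1, triose phosphate isomerase, 1.58-fold and 2.19-fold lower.

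**Figure D5:**
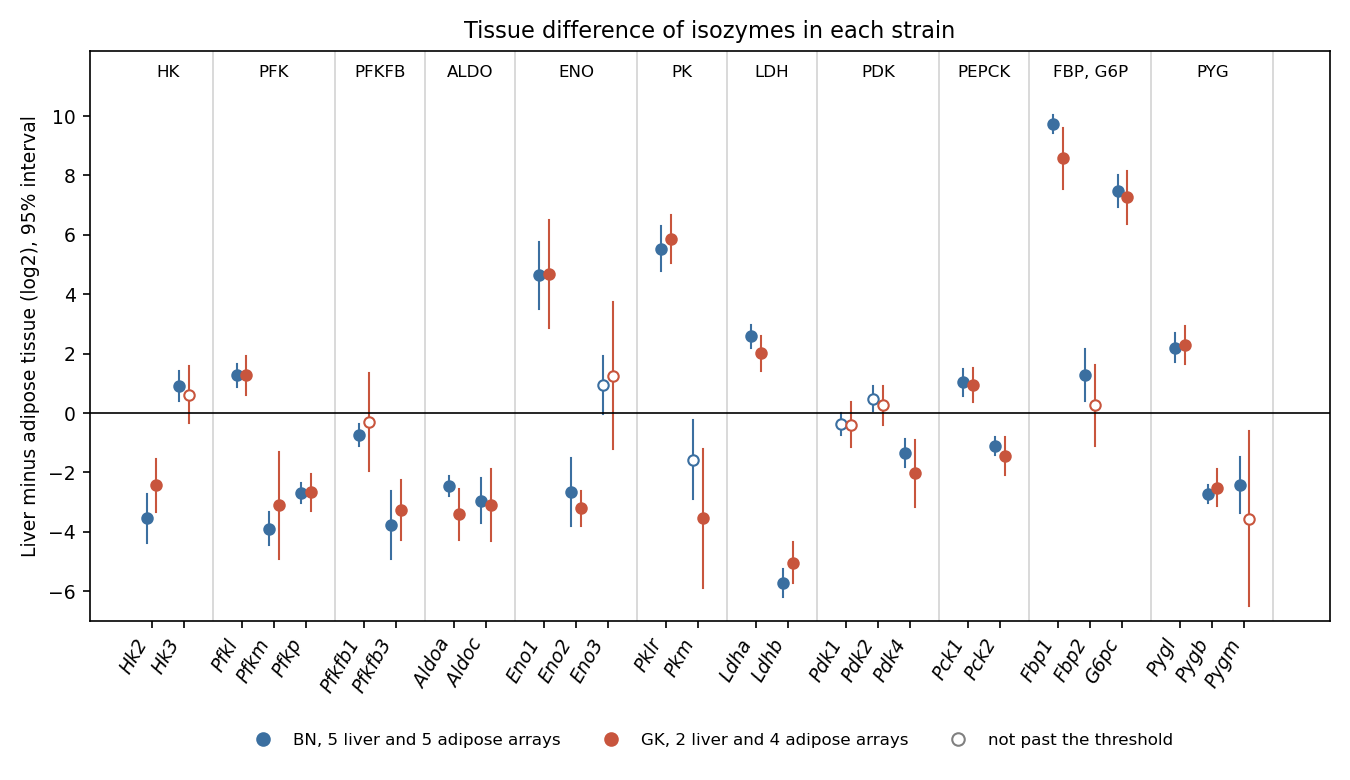
Difference of liver from adipose tissue (log2, points) with its 95% interval for isozymes, in BN (blue) and in GK without the kidney-like array (red); open points did not pass the threshold. HK is hexokinase, PFK phosphofructokinase, PFKFB its bifunctional regulator, ALDO aldolase, ENO enolase, PK pyruvate kinase, LDH lactate dehydrogenase, PDK pyruvate dehydrogenase kinase, PEPCK PEP carboxykinase, FBP and G6P the phosphatases, and PYG glycogen phosphorylase; differences of probes below background in a tissue are not folds.

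The promoters of G6pc and Pklr are shown as those of members with a high liver level, an adipose tissue level near background and a TATA box. Capitals mark TATAAA, the TATA box, or TTTATA on the other strand, in windows built as above, chr10:86807409-86807708 and chr2:176841014-176841313, both on the plus strand of GRCr8.
G6pc: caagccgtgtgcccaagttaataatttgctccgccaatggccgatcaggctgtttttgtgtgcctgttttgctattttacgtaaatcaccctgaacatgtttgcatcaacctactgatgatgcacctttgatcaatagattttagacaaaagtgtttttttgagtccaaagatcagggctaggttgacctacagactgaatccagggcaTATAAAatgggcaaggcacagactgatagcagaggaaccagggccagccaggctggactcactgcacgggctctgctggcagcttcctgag
Pklr: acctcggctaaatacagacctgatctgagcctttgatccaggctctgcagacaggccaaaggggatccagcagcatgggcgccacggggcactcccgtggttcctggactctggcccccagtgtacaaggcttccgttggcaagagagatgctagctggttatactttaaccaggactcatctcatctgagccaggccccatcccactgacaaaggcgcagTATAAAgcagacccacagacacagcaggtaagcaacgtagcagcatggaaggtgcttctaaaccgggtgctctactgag

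The box begins 41 bases before the annotated start in G6pc and 29 in Pklr. Of the 39 member windows 5 held it (12.8%), against 14.2% of all windows. Of the members higher in BN liver, 4 of the 14 with a window held it, and of those lower, 1 of 18. In Gbe1 the match lies after the annotated start. Fbp1, Khk and Eno1, also higher in BN liver, are not among the members in which it was found.

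The strain difference in liver was also set against that in adipose tissue, without the kidney-like array. No member passed this interaction test, 4 of 40 did so at an unadjusted p under 0.05 (10%, against 13.4% of all probes), and 1.73% of all probes passed after adjustment. The smallest adjusted p belonged to Gbe1, with a liver minus adipose tissue difference of 1.08 ± 0.33 (limma adjusted p = 0.135), then Fbp1 (-1.16 ± 0.38, adjusted p = 0.170) and Aldoa (-0.95 ± 0.33, adjusted p = 0.199). For the members called in adipose tissue the interaction was -0.30 (-1.25 to 0.65) for Hk3, -0.54 (-2.15 to 1.06) for Eno2 and -0.71 (-1.35 to -0.07) for Dlat. With neqc normalization 7 members passed, Gbe1, Fbp1, Aldoa, Dlat, Eno2, Pfkp and Pklr.

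Genes beside the set were read from 7 lists of pathway partners. In adipose tissue and in liver, with and without the kidney-like array, no gene of any list passed a strain comparison, out of 4 measured genes of the pentose phosphate path, 10 of glucose transport and phosphorylation, 9 of fructose and galactose entry, 12 of other glycolytic enzymes, 9 partners of the pyruvate dehydrogenase complex, 15 of glycogen and 16 regulators. At an unadjusted p under 0.05 in adipose tissue the lists had 0, 2, 1, 2, 3, 1 and 4 genes, against 14.7% of all probes. In liver they had 1, 0, 1, 2, 3, 3 and 3 with all arrays, against 12.0%, and 0, 1, 1, 5, 1, 1 and 3 without the kidney-like array, against 13.0%. The complex partners, which work beside Dlat, were above 0 for 7 of 9 in adipose tissue, with a median of 0.24, for 9 of 9 in liver with all arrays (0.79) and for 8 of 9 without the kidney-like array (0.15). The monocarboxylate transporter Slc16a1, which carries lactate and pyruvate and was chosen after its value was seen, was the only list gene past the interaction threshold (1.76 ± 0.36, limma adjusted p = 0.020). Its GK minus BN difference was -0.93 ± 0.24 in adipose tissue (limma adjusted p = 0.084) and 0.83 ± 0.28 in liver (limma adjusted p = 0.272). Between tissues in BN, the lists in the same order had 1, 4, 3, 2, 3, 1 and 10 genes higher and 2, 3, 4, 2, 3, 5 and 2 lower in liver, against 21.9% and 19.4% of all probes. In GK they had 1, 3, 3, 2, 3, 0 and 7 higher and 1, 3, 4, 3, 2, 3 and 0 lower, against 16.6% and 15.3%.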

How the data were processed

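The authors deposited raw intensity values, which their scanner software averaged over beads with no normalization, and a deposited detection score per probe, a fraction that was taken as above background over 0.99. They also deposited log2 values normalized with vsn. Probes were named from the platform annotation. Here the mean of the negative controls was subtracted from each array. Then 1 vsn model (a variance stabilizing transformation, least trimmed squares quantile 0.9, 7 iterations) was fitted to all 17 arrays in Python 3.11.15, since the vsn package was not at hand. Fitted per tissue, and after each array's median difference was removed, it differed from the deposited log2 values by a median absolute 0.010. The size of a difference between dim probes depends on the transformation, and with neqc those of Hk3 and Eno2 in adipose tissue were smaller than on this scale. Differences were tested with limma 3.58.1 in R 4.3.3, with a Benjamini-Hochberg threshold of 0.05 over 22226 probes. Scripts were tested on simulated data. A probe above background in 1 group only gives a bound, taken against the dimmest probe above background. Such a bound holds for the group means on this scale, and leaves out sampling error and other normalizations. Members past the threshold, those with the smallest adjusted p, and isozymes are named. The members, the 7 pathway lists and the marker lists were chosen with earlier results of these data known. A label gives 4 BN rats, and the 5 with data were used. Tissues of the same rat share a rat number in the labels, which pairs them; their deviations from group means correlated at -0.032 to 0.068. Alternatives were neqc, quantile normalization, vsn per tissue, the deposited values, a filter on dim probes, a trended robust variance, slide, rat and replicate blocks, and leaving out arrays.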

Additional observations from a re-analysis of the deposited data

Results flagged for a closer look

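In groups of 4 or 5 arrays, 11 of 120 sets of member values had a highest or lowest array whose gap to the next was too large a share of the range for its group size; chance flags about 5% of such sets. In BN liver, replicate 1 was the highest for G6pc (14.40, others 13.28 to 13.57), Pcx (12.72, others 12.26 to 12.34) and Gys2 (12.22, others 10.88 to 11.03). On the same array the 5 erythroid markers had a median of 9.9, against 5.7 to 6.8 on the other BN liver arrays, and its part in these values was not tested. Replicate 5 was the lowest of BN liver for Tpi1 (13.00, others 13.38 to 13.52), and replicate 2 for Ldha (14.05, others 14.19 to 14.25).

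In GK adipose tissue, replicate 2, which carries the skeletal muscle markers, was the highest for Pfkm (10.67, others 8.07 to 8.27) and Aldoa (13.27, others 12.77 to 12.83). Replicate 3 was the lowest for Eno2 (7.83, others 8.21 to 8.27), and replicate 1 the highest for Ugp2 (10.24, others 10.03 to 10.04). In BN adipose tissue, replicate 5 was the highest for Gapdh (11.31, others 10.71 to 10.85) and Pdk4 (10.51, others 9.62 to 9.72). On the same array the 6 brown adipocyte markers had a median of 8.4, against 3.3 to 8.2 on the other BN adipose tissue arrays, and its part in these values was not tested.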

How the results depend on the processing

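In adipose tissue 3 members passed the threshold. The count was 7 with neqc and with quantile normalization, 9 with vsn fitted to each tissue and with the deposited values, 11 of 32 tested with only probes above background on every array of a group, 11 with a trended robust variance (5.27% of probes) and 5 with the slide as a random block. Hk3, Eno2 and Dlat were among those called in each of these settings. The count was 0 with the slide as a fixed block (0.0765% of probes) and 1 (Eno2) with the replicate number as a block (0.828%). It was 0 without GK replicates 1 and 2 (0.949%), a setting chosen after seeing the data, and 2 to 3 without any 1 array. With neqc the differences of the dim probes Hk3 and Eno2 shrank to 0.31 and 0.51. The replicate numbers of BN and GK are only numbers: same-numbered arrays deviated together by r of -0.065 to 0.080.

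In liver without the kidney-like array, where no member passed, the count was 3 with neqc (2.16% of probes). It was 1 with quantile normalization (1.67%), with vsn fitted to each tissue (2.27%) and with the deposited values (2.36%). It was 4 with the filter on dim probes (9.64% of those tested) and 3 with the trended robust variance (3.95%). It was 0 with the replicate block (0.0%), and 0 to 1 without any 1 BN array. With all liver arrays it was 0 in every setting run, 0 to 0 without any 1 array. In the interaction, where no member passed, it was 7 with neqc (4.31% of probes) and 3 with quantile normalization (3.39%). It was 1 with the filter on dim probes (6.42% of those tested) and 2 with the trended robust variance (2.54%). It was 0 with all 17 arrays (1.03%), and 0 to 1 without any 1 BN array or GK adipose tissue array. The 1 was Fbp1 without GK adipose replicate 4. Leaving out GK liver replicate 1 or 3 left 1 array in that group, and counts of such fits are not given.

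Between tissues the count was 34 in BN, with 34 to 36 without any 1 array, and 34 with the rat as a replicate block. In GK it was 29, with 25 to 28 without any 1 adipose tissue array and 19 with the rat as a replicate block (14.7% of probes). With the kidney-like array it was 20 (23.9% of probes). The causes of these changes were not tested, beyond the fewer probes or residual degrees of freedom that the filter and the blocks bring. Recomputed in each setting were 12 members in adipose tissue, 3 and 4 in liver with all arrays and without the kidney-like array, 3 in the interaction and those past the threshold between tissues, and each of these kept its direction. Other members named in the text were not recomputed 1 by 1. Slide blocks could not be fitted between tissues or in liver without the kidney-like array, and a mean over probes was not run since each member has 1 probe. Depth is signal over background: members below it on all arrays of a group have only bounds, and the number of arrays, above all 2 GK liver arrays, limits what could be detected.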
